A study of Mus musculus with 9 samples.

Results

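Genes of salt and water transport across epithelia, 10 in all, were followed in the mouse uterus: the 3 subunit genes of the epithelial sodium channel ENaC (Scnn1a, Scnn1b and Scnn1g), the chloride channel genes Cftr and Ano1, and the aquaporin genes Aqp1, Aqp2, Aqp3, Aqp5 and Aqp8. They were taken by gene symbol, and all 10 were among the 34619 symbols that occurred once in the deposited tables. Of these 10, 8 passed the filter on low values and entered the tests with 13743 genes in all, while Scnn1a and Aqp2 are given as values. Uterus RNA of wild-type females of the outbred stock CD-1 (ICR) was sequenced from poly(A) selected, stranded libraries. The mice were bought at 7 to 8 weeks of age, kept for 1 week on estrogen-free food and corncob bedding, and then dosed by gavage for 28 days. The BPAF group received bisphenol AF, 300 µg daily per kg of body weight, the BPB group received bisphenol B at the same dose, and the control group received corn oil, with 3 libraries in each group. In both compounds a pair of phenol rings is joined through a carbon atom, which carries a pair of trifluoromethyl groups in BPAF and a methyl and an ethyl group in BPB. The labels number the libraries without saying that each came from a different mouse, and they give no stage of the estrous cycle, so the p-values measure the spread between these libraries, which may be technical.

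Fluid in the uterine lumen is set by secretion and absorption across the epithelium. Chloride and bicarbonate leave the cells through Cftr and calcium-activated channels such as Ano1, and water follows. ENaC takes up sodium at the apical membrane, which draws fluid out of the lumen, and aquaporins let water (Aqp3 also glycerol) cross the membranes. In the rodent uterus estrogen is known to promote fluid secretion and Cftr expression, and progesterone to favour absorption. ENaC and Aqp3 are also known constituents of the urothelium, the lining of the bladder and urinary tract.

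The 250 bases before the transcription start are shown for Scnn1g and Ano1, the 2 of the 10 genes that passed the test in BPB, and for Aqp3, which had the widest fitted difference. The sequences are RefSeq's for build GRCm38.p6, and are written 5′ to 3′ on the gene's strand. Capitals mark the matches to the estrogen response element half-site GGTCA, read as TGACC on the other strand, or to the TATA box TATAAA on the gene's strand. The windows are chr7:121734229-121734478 (plus strand) for Scnn1g, chr7:144738574-144738823 (minus strand) for Ano1 and chr4:41098184-41098433 (minus strand) for Aqp3.
Scnn1g: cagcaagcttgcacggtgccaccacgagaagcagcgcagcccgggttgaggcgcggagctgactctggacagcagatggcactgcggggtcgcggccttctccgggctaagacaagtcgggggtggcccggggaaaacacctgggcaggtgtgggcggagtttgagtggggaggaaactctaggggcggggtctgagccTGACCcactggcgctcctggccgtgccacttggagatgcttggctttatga
Ano1: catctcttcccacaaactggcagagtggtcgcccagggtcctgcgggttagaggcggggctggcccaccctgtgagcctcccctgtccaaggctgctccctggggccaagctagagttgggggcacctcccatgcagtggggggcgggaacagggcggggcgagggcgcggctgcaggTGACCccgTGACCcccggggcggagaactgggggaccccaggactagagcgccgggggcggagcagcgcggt
Aqp3: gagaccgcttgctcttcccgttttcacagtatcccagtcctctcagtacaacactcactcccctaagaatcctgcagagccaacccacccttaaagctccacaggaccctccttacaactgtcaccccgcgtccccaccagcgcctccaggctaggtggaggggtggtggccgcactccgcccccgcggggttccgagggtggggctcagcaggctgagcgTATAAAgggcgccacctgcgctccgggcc

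The half-site stands once in the Scnn1g window, at bases -51 to -47 from the start, and at 2 places in the Ano1 window, at -72 to -68 and at -64 to -60. It also occurs once in the windows of Scnn1b and Aqp5, and 35.2% of the 32851 promoters in the table hold it on either strand. The TATA box of Aqp3 lies at -29 to -24, and 7.59% of all promoters hold those letters. Neither the full estrogen response element GGTCANNNTGACC (0.0639% of promoters), which contains the half-site, nor GNACANNNTGTNC (0.387%), the element shared by the glucocorticoid, progesterone and mineralocorticoid receptors, is spelled in the windows of the 9 genes found in the table. The windows of Scnn1g, Ano1 and Aqp3 were 65.2%, 72.0% and 64.0% G and C, against a median of 52.4% over all promoters. These matches describe letters only, and the build behind the deposited values is not given in the sources used here.

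The libraries held 12620199 to 15616778 reads, worked out from the deposited values, and 11614 to 13105 genes at 1 FPKM (read fragments divided by gene length in kilobases and by library size) or more. Control 3 stood apart, with 13.0% of its reads on mitochondrial genes, against 6.33% to 7.83% in BPAF, 5.81% to 8.31% in BPB and 3.4% and 3.52% in the other controls, and with the lowest median-ratio size factor, 0.734. It had the lowest control value of Scnn1b, Ano1, Cftr and Aqp1, and the BPB differences without it were 0.74, 1.81, -2.22 and 1.12 on the log2(FPKM + 1) scale, against 1.21, 1.93, -1.89 and 1.65 with it. The position and receptor genes Hoxa10, Hoxa11, Hoxd10, Hoxd11, Esr1 and Pgr were above 0 in every library, which alone does not establish uterine identity. Their summed levels were 147.7 to 317.3 FPKM in BPAF, 121.6 to 171.1 in BPB and 101.2 to 179.6 in control. None of these 6 genes was called in BPB or BPAF by limma or limma-voom, with 2 in BPB and 4 in BPAF at an unadjusted p under 0.05. Pgr lay below all controls in both exposed groups, at 30.4 FPKM at most in BPAF and 22.4 in BPB, against 35.6 or more in control. In BPB, Esr1 also lay below all controls and Hoxa10 above them. In BPAF, Hoxa11 lay above all controls. Markers of urothelium divided the libraries. The 12 markers summed to 1852 FPKM in BPAF 1 and to 2131, 3053 and 3572 FPKM in BPB 1, 2 and 3, with none at 0, but to 13.7 and 16.1 in BPAF 2 and 3 and 30.2 to 88.0 in control, with 2 to 6 markers at 0 per library. Upk3a, a uroplakin of the bladder surface, had 323.4 FPKM in BPAF 1 and 335.1, 484.1 and 546.9 FPKM in BPB 1, 2 and 3, and was listed at 0 in the other 5 libraries. Of the 12 markers, 9 were higher in BPB than in control by limma at an adjusted p under 0.05, and 0 by limma-voom. The highest control sum, that of control 3, was mostly the basal keratin gene Krt5 at 71.9 FPKM. Since the uroplakin markers were high in all BPB libraries and in no control library, a BPB difference and the urothelial signal cannot be told apart, and the BPAF differences of the 8 tested genes are given with and without BPAF 1. In RNA from whole tissue, fewer cells of a type and less RNA per cell cannot be told apart either.

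Each exposed group was set against control. In BPB, 2 of the 8 tested genes passed the test against control, Scnn1g and Ano1, and both were higher. Of all 13743 genes tested, 2.55% passed in either direction and 2.05% were higher. Without control 1 or BPB 2 only 1 of all genes was called, and 3 without BPB 3. Of the 351 genes called, 80.3% were higher, against 65.4% of 312 with libraries scaled by median ratios, which set the median of all genes at -0.04 in BPB and at -0.02 in BPAF and turned the sign of none of the 8 genes. The median fitted difference of the 8 genes was 1.43 on the log2(FPKM + 1) scale, against 0.15 over all genes tested. The filter admits a gene that is high in 1 group only. Scnn1g reached 1 FPKM in BPB 1, 2 and 3 and BPAF 1 alone, and so was tested because of the libraries in which it was high. Aqp3 reached 1 FPKM in the same libraries and in control 3 alone, so the same holds for Aqp3. Both genes enter the median above and the counts of libraries without overlap below. In 7 of the 10 genes the 3 BPB libraries did not overlap the 3 control libraries, 6 of them above and Cftr below. Of the 8 tested genes, 5 lay above and Cftr below, against 19.5% and 6.1% of all tested genes (25.6% together). Limma-voom called none of the 10 in BPB, where it called 0.35% of 16280 genes. In BPAF none of the 8 genes passed limma's test against control, where 0.0218% of all genes did. Ano1 alone of the 8 had an unadjusted p under 0.05 there, against 5 of the 8 in BPB. Over all 13743 genes, 1757 had one in BPAF and 2387 in BPB by limma, which is the background for such counts in the gene lists. Limma-voom on the recovered reads called none of the 10 genes in BPAF, where it called 0.0123% of all. The median difference was 0.65 in BPAF, against 0.21 over all genes. Scnn1a, which stayed under the filter, was the only 1 of the 10 that did not overlap control. All 8 tested genes overlapped control, while 16.8% of all tested genes did not in either direction and 14.3% lay above control. BPAF and BPB were set against the same control libraries.

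**Figure D1:**
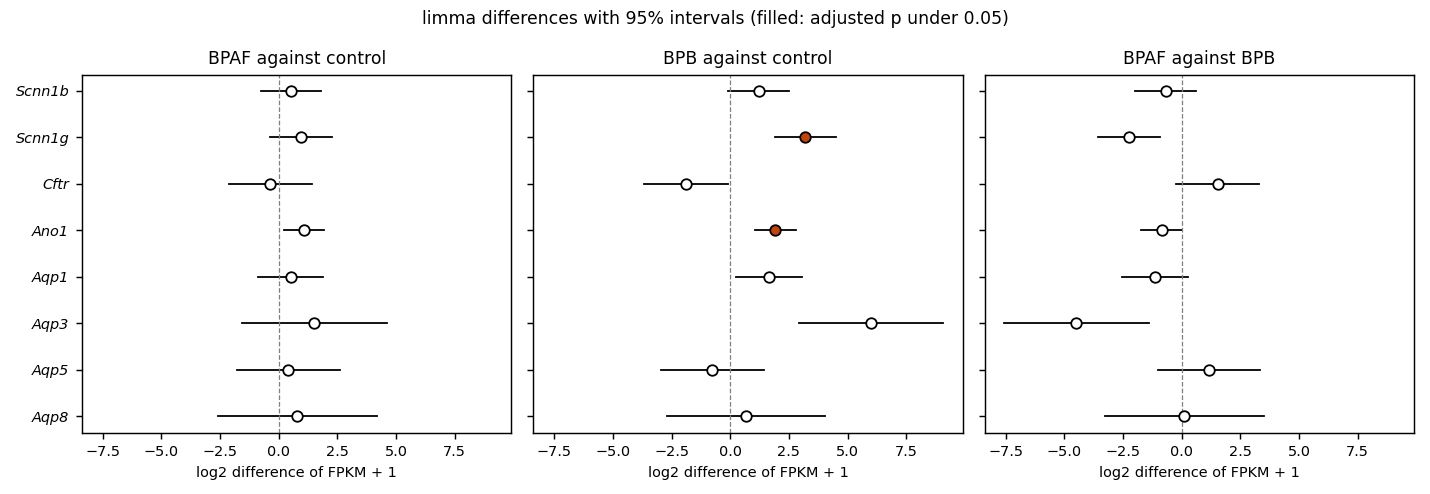
Differences in log2(FPKM + 1) for the 8 tested genes (x axis) in BPAF against control, BPB against control and BPAF against BPB, with 95% intervals from limma. Filled points have an adjusted p under 0.05: Scnn1g at 3.19 and Ano1 at 1.93, both in BPB against control.

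Among the ENaC genes, Scnn1g, the gamma subunit, was almost unread in control uterus and rose in BPB. It had 4.07, 0 and 0.475 FPKM in BPAF 1, 2 and 3, 3.96, 9.55 and 14.0 FPKM in BPB 1, 2 and 3, and 0, 0 and 0.026 FPKM in the control libraries. These values stand for 156, 0 and 19 reads in BPAF, 173, 446 and 563 reads in BPB, and 0, 0 and 1 reads in control. Each BPB library and BPAF 1 held many reads, BPAF 3 held few, and BPAF 2 could not be told from control. A count of 0 allows up to 3 reads, or 0.0665 and 0.0724 FPKM in control 1 and 2 and 0.0687 FPKM in BPAF 2. The fitted difference was 3.19 ± 0.58 in BPB against control (log2(FPKM + 1), SE, adjusted p = 0.03 by limma). The added 1 makes this smaller than the change in reads. Summed over each group and scaled to depth, the reads gave a ratio of 1126 in BPB over control with an exact 95% interval of 201.8 to 44530, and of 178.3 in BPAF over control with an interval of 31.6 to 7083. These intervals cover counting error only, and 156 of the 175 BPAF reads came from BPAF 1. In BPAF against control the fitted difference was 0.95 ± 0.58 with BPAF 1 (adjusted p = 0.505 by limma) and 0.27 ± 0.44 without it (adjusted p = 0.87).

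The Scnn1g call in BPB was lost without any 1 of the control libraries, BPB 2 or BPB 3 (adjusted p = 0.0723 to 0.127 by limma) and kept without BPB 1 (adjusted p = 0.0327), while the difference stayed at 2.84 to 3.64. It was also lost with a pseudocount of 0.01 (adjusted p = 0.0706), with no filter on low values (adjusted p = 0.0606) and by limma-voom on reads (adjusted p = 0.0935).

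Scnn1b, the beta subunit, had 4.68, 0.435 and 3.27 FPKM in BPAF 1, 2 and 3, 3.19, 3.56 and 6.65 FPKM in BPB, and 2.90, 1.56 and 0.181 FPKM in control. The lowest BPB library was only just above the highest control, and the BPAF libraries overlapped control. Its difference of 1.21 ± 0.57 in BPB did not pass (adjusted p = 0.317 by limma), nor did 0.52 ± 0.57 in BPAF (adjusted p = 0.726), which was 0.12 ± 0.60 without BPAF 1.

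Scnn1a, the alpha subunit, on which channel activity depends, had 0.999, 0.192 and 0.580 FPKM in BPAF, 1.13, 0.422 and 0.619 FPKM in BPB, and 0.144, 0.163 and 0.157 FPKM in control. All 6 exposed libraries were above all 3 controls, by little in BPAF 2, whose 31 reads compare with 22 to 25 reads in control. The gene reached 1 FPKM in 1 library and stayed under the filter. Limma-voom on the recovered reads gave a log2 difference of 1.60 ± 0.74 in BPAF (adjusted p = 0.418) and 2.08 ± 0.72 in BPB (adjusted p = 0.178), neither past the threshold.

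**Figure D2:**
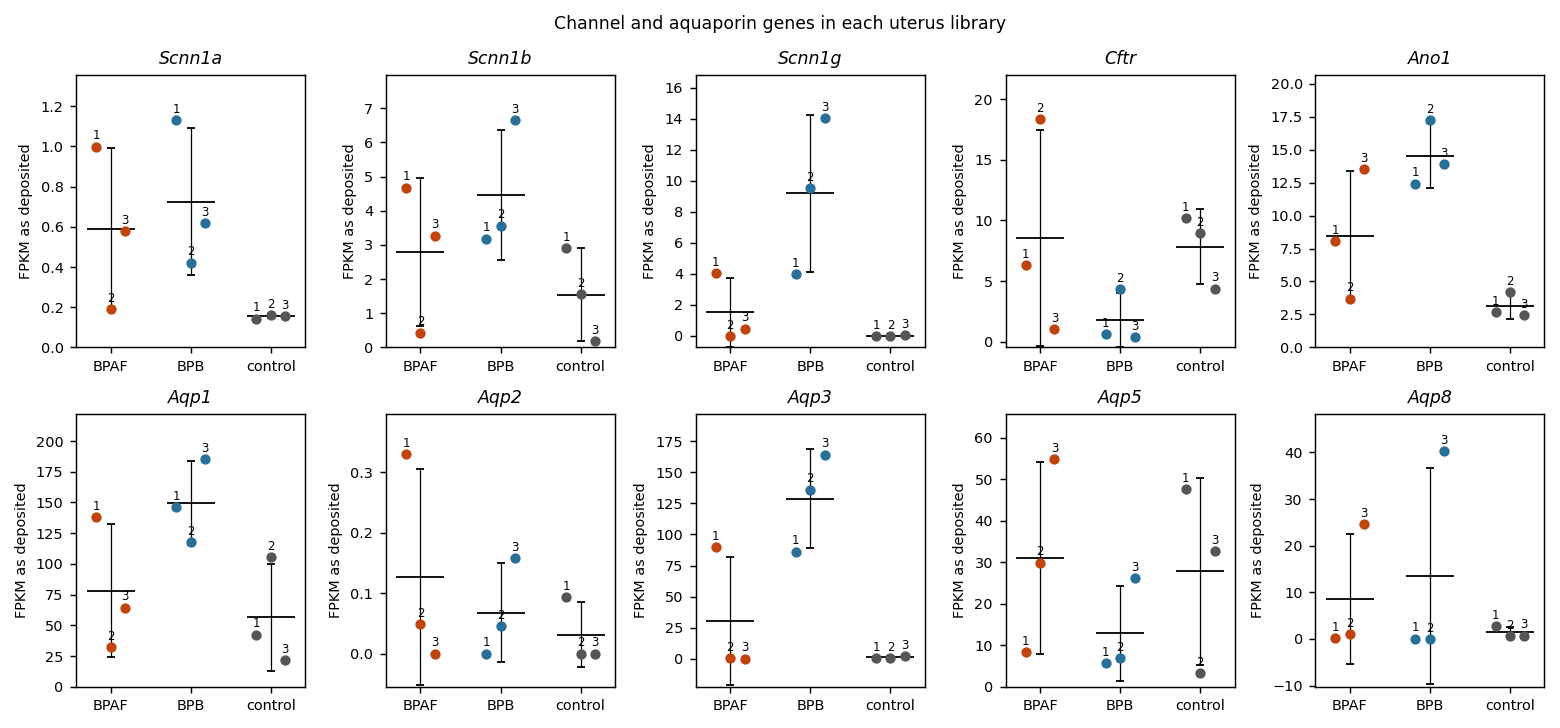
Deposited FPKM (y axis, a separate scale per gene) of the 10 genes in BPAF, BPB and control. Each numbered point is 1 library, the wide line is the mean and the error bar is 1 SD of 3 libraries. Scnn1g and Aqp3 are high in all 3 BPB libraries and BPAF 1, while Aqp8 is high in BPB 3 and BPAF 3.

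The deposited FPKM divide by the summed length of all annotated exons of a gene, which for Scnn1a is 11082 bases against 3499 bases for its longest coding transcript. Levels of different genes were therefore compared as reads per kilobase of the longest coding transcript, scaled to the same library total. On that scale the 3 ENaC genes summed to 14.7, 1.30 and 7.50 in BPAF 1, 2 and 3, to 12.6, 16.5 and 26.6 in BPB, and to 5.05, 2.99 and 0.813 in control. Every BPB library was above every control library, and BPAF 2 was within the control range. Scnn1g made up 27.7%, 0% and 6.33% of the ENaC sum in BPAF 1, 2 and 3, 31.4%, 57.7% and 52.8% in BPB, and 0%, 0% and 3.26% in control. Scnn1b was the largest share in control 1 and 2, at 91.0% and 82.8%, and in all 3 BPAF libraries, at 50.7%, 53.2% and 69.2%. In control 3, with 0.813 in all, Scnn1a was the largest, at 61.3%.

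**Figure D3:**
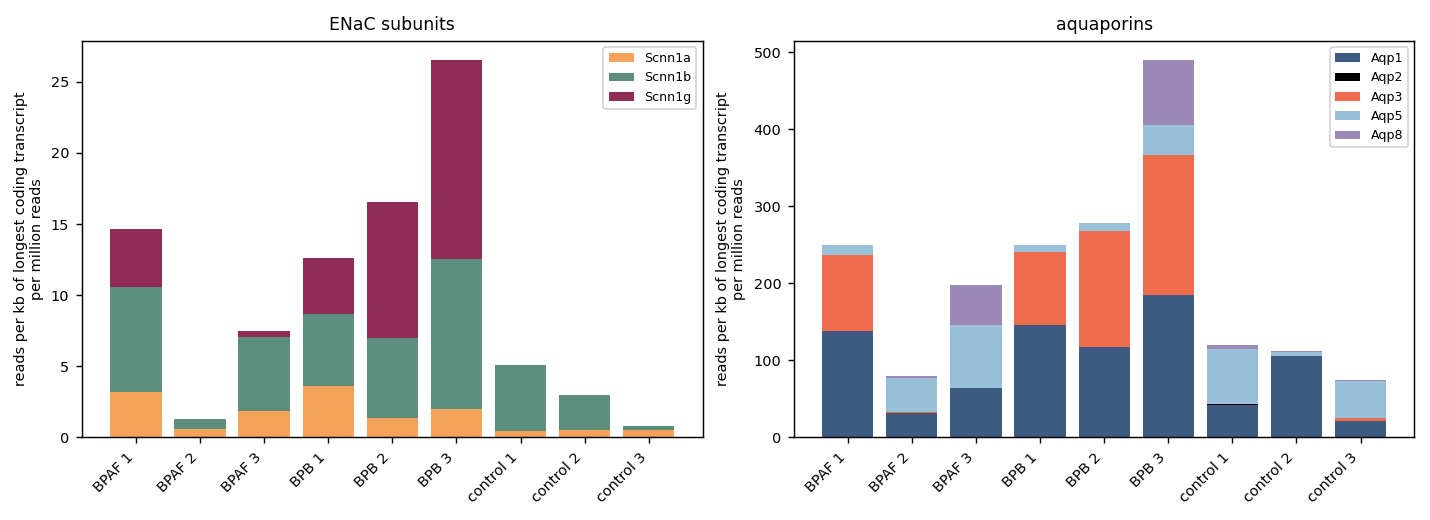
Stacked levels of the ENaC genes (left) and of the 5 aquaporins (right) per library, in reads per kb of the longest coding transcript scaled to the library total. The Scnn1g and Aqp3 segments are wide in BPAF 1 and all BPB libraries, and the Aqp8 segment in BPAF 3 and BPB 3.

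Of 15 regulators of ENaC (kinases, ubiquitin ligases, proteases with their inhibitors and steroid receptors), 14 were tested, and 1 rose and none fell in BPB by limma, with 5 at an unadjusted p under 0.05 and none called by limma-voom. The gene was Tmprss2, a membrane serine protease of epithelia. It had 113.6, 43.0 and 91.5 FPKM in BPAF 1, 2 and 3, 100.1, 142.4 and 166.0 FPKM in BPB, and 33.9, 17.3 and 25.8 FPKM in control. All exposed libraries lay above all controls. The difference was 2.38 ± 0.41 in BPB (adjusted p = 0.0259 by limma) and 1.59 ± 0.41 in BPAF (adjusted p = 0.284), or 1.31 ± 0.43 without BPAF 1. The BPB call was lost without any 1 of the control libraries, BPB 2 or BPB 3 (adjusted p = 0.0656 to 0.118). In BPAF none of the 14 was called by limma or limma-voom, with 3 at an unadjusted p under 0.05. There Usp2, a deubiquitinating enzyme, was 1.15 ± 0.35 above control (adjusted p = 0.301). The list's median difference was 0.18 in BPAF and 0.20 in BPB, close to the 0.21 and 0.15 of all genes.

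Of the chloride channels, Ano1, the calcium-activated channel of secretory epithelium, smooth muscle and the interstitial cells of Cajal, rose in BPB. It had 8.09, 3.70 and 13.5 FPKM in BPAF 1, 2 and 3, 12.4, 17.2 and 13.9 FPKM in BPB, and 2.70, 4.21 and 2.46 FPKM in control. All BPB libraries were above all controls, and BPAF 2 lay within the control range. Group means were 8.44 ± 4.92 FPKM in BPAF, 14.5 ± 2.47 FPKM in BPB and, in control, 3.12 ± 0.947 FPKM (n = 3 libraries each, SD). The difference was 1.93 ± 0.39 in BPB (adjusted p = 0.0405 by limma) and 1.07 ± 0.39 in BPAF (adjusted p = 0.323). Unlike Scnn1g, Ano1 was high in BPAF 3, where the urothelial markers summed to 16.1 FPKM, and its BPAF difference was 1.03 ± 0.46 without BPAF 1 (adjusted p = 0.516). The Ano1 call in BPB was lost without any 1 of the control or BPB libraries (adjusted p = 0.0646 to 0.153 by limma). It was also lost when libraries were scaled by median ratios (adjusted p = 0.0507), with no filter (adjusted p = 0.0735), with a pseudocount of 0.1 or 0.01 (adjusted p = 0.0539 and 0.0645) and by limma-voom (adjusted p = 0.0583).

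Markers of 2 cell types known to carry Ano1 were read beside it. The 7 smooth muscle markers, led by Tagln and Acta2, summed to 3407, 3214 and 1044 FPKM in BPAF 1, 2 and 3, 7394, 8542 and 11800 FPKM in BPB, and 4547, 5648 and 3552 FPKM in control. None of them was called in BPB by limma or limma-voom, with 4 at an unadjusted p under 0.05, and their median difference was 1.11 in BPB and -1.17 in BPAF. The 4 markers of interstitial cells of Cajal summed to 2.58, 2.63 and 6.55 FPKM in BPAF, 4.42, 6.34 and 6.03 FPKM in BPB, and 2.83, 2.87 and 1.02 FPKM in control, with none at 0 and none of the 2 tested called in BPB. The 4 libraries highest in this sum, BPAF 3 and all BPB libraries, were also the 4 highest in Ano1. In BPAF 3, however, Kit alone gave 5.38 of the 6.55 FPKM, while Prkcq at 0.417 and Etv1 at 0.229 FPKM lay below control 1, at 0.537 and 0.257 FPKM. The part of either cell type in the Ano1 values was not tested.

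Cftr, the cyclic AMP-regulated chloride and bicarbonate channel, had 6.29, 18.4 and 1.003 FPKM in BPAF 1, 2 and 3, 0.630, 4.34 and 0.343 FPKM in BPB, and 10.2, 8.93 and 4.37 FPKM in control. The BPB libraries lay below control, though BPB 2 and control 3 differed by little, while BPAF held both the highest value of all 9 libraries and one of the 3 lowest. The difference was -1.89 ± 0.79 in BPB (adjusted p = 0.256 by limma) and -0.36 ± 0.79 in BPAF (adjusted p = 0.87), and the BPAF value was -0.44 ± 0.94 without BPAF 1 and 0.50 ± 0.67 without BPAF 3. Exons of Cftr overlap those of Gm15592 on the opposite strand in GENCODE M21, and whether the counting used strand is not given in the sources used here.

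Of 23 partners of anion secretion (sodium pump subunits, potassium channels, bicarbonate and chloride exchangers, carbonic anhydrases and kinases), 21 were tested, and none was called in BPB or BPAF by limma or limma-voom, with 6 in BPB and 3 in BPAF at an unadjusted p under 0.05. Car2, the cytosolic carbonic anhydrase that supplies bicarbonate, had 95.6, 347.4 and 75.7 FPKM in BPAF 1, 2 and 3, 32.4, 87.1 and 49.5 FPKM in BPB, and 205.3, 224.5 and 286.6 FPKM in control. As with Cftr, all BPB libraries were below all controls and BPAF 2 was the highest library. The difference was -2.16 ± 0.57 in BPB (adjusted p = 0.0822 by limma). Car12, a membrane carbonic anhydrase, was -2.56 ± 0.83 (adjusted p = 0.152). The 2 smallest unadjusted p-values in BPAF belonged to the sodium pump subunit gene Atp1b1, at 1.43 ± 0.51 (adjusted p = 0.321), and the potassium channel gene Kcnq1, at 0.66 ± 0.26 (adjusted p = 0.356). The list's median was -0.13 in BPAF and 0.09 in BPB.

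Beside Cftr, 12 genes known to be stimulated by estrogen in uterine epithelium had a mean log2(FPKM + 1) of 4.72, 5.51 and 2.67 in BPAF 1, 2 and 3, 3.91, 4.45 and 2.88 in BPB, and 6.86, 6.15 and 5.99 in control. The 3 libraries with the least Cftr, BPB 3, BPB 1 and BPAF 3, were the 3 lowest in this mean. At the high end the orders differed, since BPAF 2, with the most Cftr, had a mean below every control. Of the 11 genes tested, 9 were fitted lower in BPB and 2 higher, with a median difference of -2.81. The 2 higher genes, Wnt4 and Ccnd1, lay above all controls in every BPB library. By limma 3 of the 11 fell in BPB, namely the cornified envelope genes Sprr2b and Sprr2g and the oxytocin receptor gene Oxtr. Their differences were -5.45, -2.56 and -3.46 (adjusted p = 0.0276, 0.049 and 0.0416 by limma), and limma-voom called none. All 3 calls were lost without any 1 of the control libraries, BPB 2 or BPB 3 (adjusted p = 0.0586 to 0.175), and without BPB 1 only that of Sprr2b was kept (adjusted p = 0.0282). The call of Sprr2g was also lost without BPAF 1 (adjusted p = 0.0606) and that of Oxtr without BPAF 3 (adjusted p = 0.0541). None was called in BPAF, with 5 at an unadjusted p under 0.05, where Sprr2b was at -4.70 (adjusted p = 0.216). The 7 genes with a row of 8 stimulated by progesterone had a mean of 1.67, 0.59 and 3.03 in BPAF 1, 2 and 3, 2.72, 1.02 and 2.62 in BPB, and 0.66, 0.73 and 0.37 in control. Its 3 highest libraries were again BPAF 3, BPB 1 and BPB 3. None of the 5 tested was called in either group by limma or limma-voom, with 2 in BPB and 1 in BPAF at an unadjusted p under 0.05. The uterine epithelial markers, led by Krt8 and Krt18, summed to 1347, 1677 and 680.5 FPKM in BPAF, 982.8, 1617 and 1166 FPKM in BPB, and 1717, 1089 and 1319 FPKM in control. None of these 12 was called in BPB by limma or limma-voom, with 2 at an unadjusted p under 0.05. They did not move alike, with 4 fitted higher and 8 lower in BPB. All BPB libraries lay above all controls in Krt18, at 294.9 FPKM or more against 187.4 FPKM at most. They lay below all controls in Epcam, at 128.1 FPKM at most against 148.0 FPKM or more, and in Elf3. The part of hormonal state or epithelial content in the Cftr values was not tested.

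The aquaporins differed most in Aqp3, which carries water and glycerol, mostly across basolateral membranes. Aqp3 had 89.7, 0.668 and 0.154 FPKM in BPAF 1, 2 and 3, 86.1, 136.1 and 164.1 FPKM in BPB, and 0.612, 0.333 and 2.44 FPKM in control. BPAF 1 and the BPB libraries held 2241 to 4286 reads, the other 5 libraries 4 to 60 reads, and nothing lay between. The difference in BPB was 6.01 ± 1.37, just outside the threshold (adjusted p = 0.0546 by limma). The BPAF libraries enter the shared estimate of the spread, and the adjusted p was 0.000191 without BPAF 1, 0.0457 without BPAF 3 0.0516 without BPAF 2 and 0.000904 with the BPB and control libraries alone. It was 0.101 to 0.191 without any 1 of the control or BPB libraries, 0.101 with no filter and 0.0906 by limma-voom. In BPAF the difference was 1.52 ± 1.37 with BPAF 1 (adjusted p = 0.66) and -0.49 ± 0.46 without it (adjusted p = 0.747). The 4 libraries with high Aqp3 were the 4 with high urothelial markers, and control 3 was the highest of the other 5 libraries in both, with an Aqp3 of 2.44 FPKM and a marker sum of 88.0 FPKM. The basal keratin gene Krt5 alone gave 71.9 FPKM of that control 3 sum. Aqp3 is itself a known urothelial gene, and the part of urothelium in its values was not tested.

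**Figure D4:**
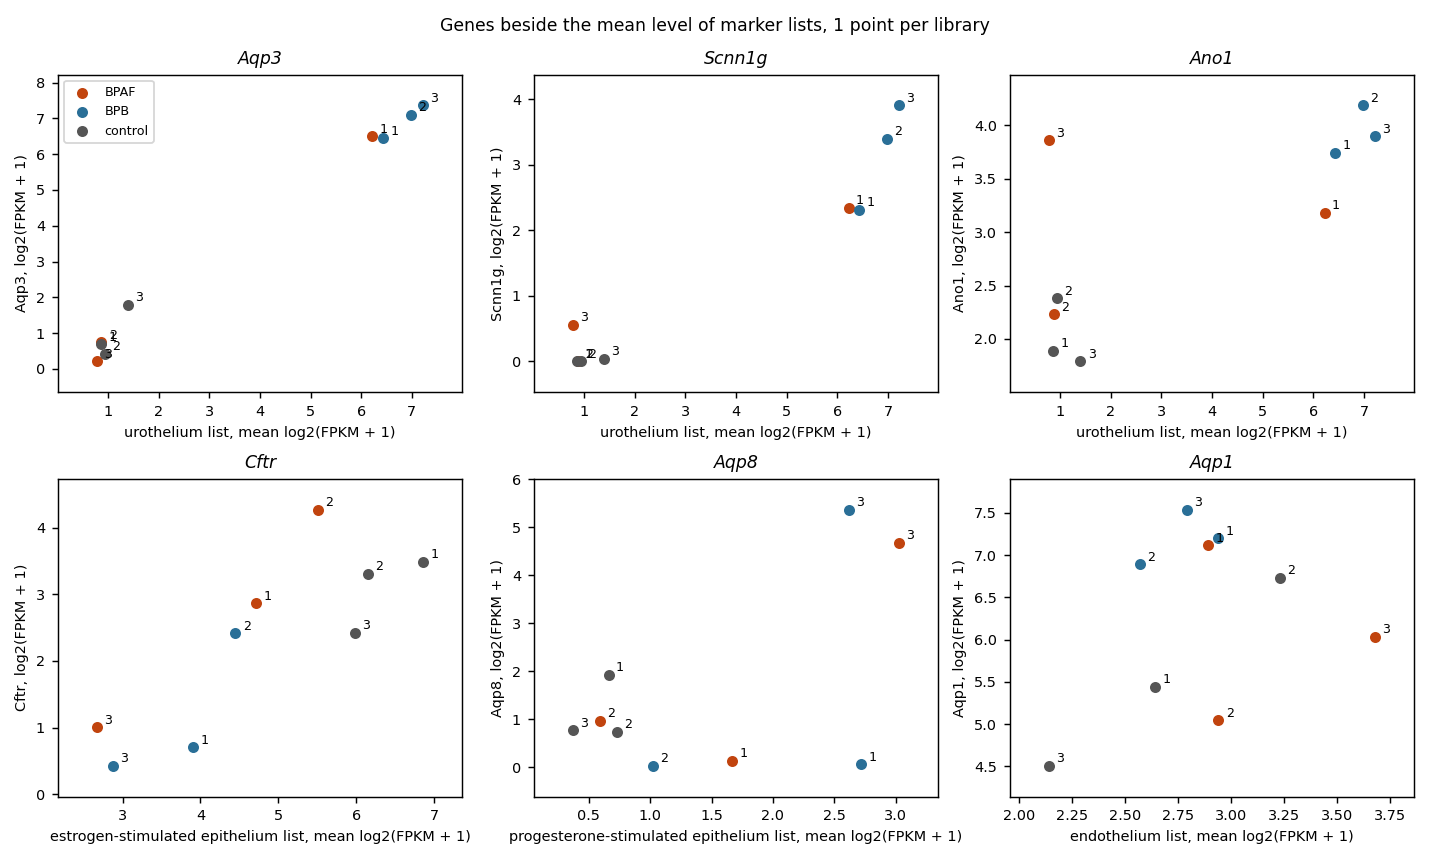
Level of 6 genes (y axis, log2(FPKM + 1)) against the mean log2(FPKM + 1) of a marker list (x axis), with 1 numbered point per library. Aqp3 and Scnn1g are high where the urothelium list is, in BPAF 1 and all BPB libraries, while Ano1 is also high in BPAF 3. The 3 libraries low in Cftr are the 3 lowest in the estrogen list, but BPAF 2, the highest in Cftr, is below all controls in that list.

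Aqp1, a water channel of endothelium and red cells, had 137.9, 32.0 and 64.4 FPKM in BPAF 1, 2 and 3, 145.9, 117.7 and 185.1 FPKM in BPB, and 42.5, 105.5 and 21.7 FPKM in control. All BPB libraries were above all controls, and BPAF overlapped control. The difference of 1.65 ± 0.62 in BPB did not pass (adjusted p = 0.208 by limma), nor did 0.50 ± 0.62 in BPAF (adjusted p = 0.759), which was -0.02 ± 0.62 without BPAF 1. Endothelial markers, led by Cdh5 and Cldn5, summed to 66.8, 65.0 and 117.3 FPKM in BPAF, 64.2, 51.6 and 58.4 FPKM in BPB, and 48.2, 87.0 and 32.2 FPKM in control, with none of the 8 called in BPB by limma or limma-voom and 1 at an unadjusted p under 0.05. Red cell markers, led by Hbb-bs and Hba-a1, summed to 28.0, 3.23 and 7.09 FPKM in BPAF, 26.5, 19.2 and 40.1 FPKM in BPB, and 9.19, 32.4 and 12.5 FPKM in control, with none of the 3 tested called in BPB or at an unadjusted p under 0.05. The 5 libraries highest in the red cell sum, BPB 3, control 2, BPAF 1, BPB 1 and BPB 2, were the 5 highest in Aqp1. Within these, BPB 3, BPB 1, BPAF 1 and BPB 2, the libraries with high urothelial markers, led in Aqp1, and control 2 followed at 105.5 FPKM. The part of blood or urothelium in the Aqp1 values was not tested.

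Aqp5, the apical water channel of glands, had 8.36, 29.9 and 54.8 FPKM in BPAF 1, 2 and 3, 5.68, 6.96 and 26.1 FPKM in BPB, and 47.5, 3.31 and 32.6 FPKM in control. High and low libraries were found in every group. The difference was 0.40 ± 0.98 in BPAF (adjusted p = 0.887 by limma) and -0.76 ± 0.98 in BPB (adjusted p = 0.756), and the BPAF value was 1.11 ± 1.02 without BPAF 1 and turned to -0.68 without control 2 and to -0.17 without BPAF 3.

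Aqp8, a channel for water and ammonia, had 0.099, 0.959 and 24.6 FPKM in BPAF 1, 2 and 3, 0.044, 0.020 and 40.2 FPKM in BPB, and 2.81, 0.666 and 0.706 FPKM in control. BPAF 3 and BPB 3 stood far above every other library, while BPAF 1, BPB 1 and BPB 2, with 4, 2 and 1 reads, were below every control. The difference was 0.78 ± 1.51 in BPAF (adjusted p = 0.849 by limma) and 0.67 ± 1.51 in BPB (adjusted p = 0.874). The BPAF value was 1.68 ± 1.65 without BPAF 1. Leaving out the 1 high library of each group turned it to -0.59 without BPAF 3 and to -1.10 without BPB 3. Cyp26a1, a retinoic acid-degrading enzyme that progesterone induces in mouse uterine epithelium, was likewise highest in those libraries, at 2.33, 0.270 and 153.6 FPKM in BPAF 1, 2 and 3, 3.44, 0.506 and 46.4 FPKM in BPB 1, 2 and 3, and 0.224 FPKM at most in control. Cyp26a1 was picked from the genes stimulated by progesterone with its values known. Of the others, Fst was also highest in BPAF 3 and BPB 3, at 26.65 and 16.88 FPKM, and Fkbp5 in BPB 3. Ihh, Il13ra2, Areg and Calca were higher in BPB 1 than in BPB 3, and the list's mean was 2.72 and 2.62 there. The part of Cyp26a1 in the Aqp8 values was not tested.

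Aqp2, the vasopressin-regulated channel of the kidney collecting duct, had 6, 1 and 0 reads in BPAF 1, 2 and 3, 0, 1 and 3 reads in BPB, and 2, 0 and 0 reads in control. Its highest level was 0.330 FPKM in BPAF 1, and 3 reads were worth 0.135 to 0.168 FPKM, so a difference was not detectable at this depth. The ratio of summed reads was 3.57 in BPAF over control, with an exact 95% interval of 0.679 to 35.2, and 1.91 in BPB over control, with an interval of 0.273 to 21.1.

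Of the 7 other aquaporin genes, 1 was tested. Aqp4, a water channel best known from brain, had 0.997, 1.63 and 0.118 FPKM in BPAF 1, 2 and 3, 0.553, 0.227 and 0.0734 FPKM in BPB, and 10.8, 0.539 and 3.88 FPKM in control. The difference was -1.31 ± 0.64 in BPAF (adjusted p = 0.421 by limma) and -1.81 ± 0.64 in BPB (adjusted p = 0.18), and both groups overlapped control through control 2. Aqp11, an aquaporin of intracellular membranes that was picked out after its values were seen, had 59, 51 and 128 reads in BPAF 1, 2 and 3, 187, 89 and 78 reads in BPB, and 5, 30 and 7 reads in control. All exposed libraries were above all controls, at levels under 1 FPKM except in BPB 1. Aqp7, a channel for water and glycerol that was likewise picked out afterwards, had 24, 0 and 26 reads in BPAF 1, 2 and 3, 27, 79 and 12 reads in BPB, and 2, 1 and 0 reads in control, with BPB above all controls and BPAF overlapping them. Among all genes tested, 14.3% lay above control in all 3 BPAF libraries and 19.5% in all 3 BPB libraries.

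Per length of the coding transcript, the 5 aquaporins summed to 249.9, 79.4 and 198.2 in BPAF 1, 2 and 3, 249.4, 278.4 and 490.2 in BPB, and 120.0, 112.2 and 74.6 in control. The BPB libraries and 2 of the 3 BPAF libraries were above all controls. Aqp3 made up 39.6%, 0.929% and 0.0855% of this sum in BPAF 1, 2 and 3, 38.1%, 53.9% and 36.9% in BPB, and 0.563%, 0.328% and 3.61% in control. Aqp1 and Aqp5 together held nearly all of the sum in control. Aqp8 held 26.2% in BPAF 3 and 17.3% in BPB 3.

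On the same scale Aqp1 had the highest mean level in every group of 3 libraries, but the order below it differed. In BPAF it was Aqp1 (78.1), Aqp5 (46.2), Aqp3 (33.3), Aqp8 (18.1), Ano1 (14.5), Cftr (14.5), Scnn1b (4.43), Scnn1a (1.87), Scnn1g (1.51) and Aqp2 (0.126). Without BPAF 1 it was led by Aqp5 (63.1), Aqp1 (48.2) and Aqp8 (27.0), with Aqp3 at 0.453, the eighth. The place of Aqp3 thus rested on BPAF 1, and that of Aqp8 on BPAF 3, at 51.9 against 0.210 and 2.03 in BPAF 1 and 2. In BPB it was Aqp1 (149.6), Aqp3 (142.1), Aqp8 (28.4), Ano1 (24.9), Aqp5 (19.2), Scnn1g (9.18), Scnn1b (7.09), Cftr (2.997), Scnn1a (2.29) and Aqp2 (0.0676). Aqp3, Scnn1g and Aqp8 stood higher in this order than in the other groups, Aqp8 through BPB 3 alone, at 85.0 against 0.0922 and 0.0431 in BPB 1 and 2. In control it was Aqp1 (56.6), Aqp5 (41.5), Cftr (13.2), Ano1 (5.36), Aqp8 (2.94), Scnn1b (2.45), Aqp3 (1.25), Scnn1a (0.489), Aqp2 (0.0311) and Scnn1g (0.00883). In BPAF the ranges over libraries overlapped between all neighbours in this order. In BPB they overlapped except between Aqp3 and Aqp8 and between Scnn1a and Aqp2, and in control except between Cftr and Ano1 and between Scnn1a and Aqp2.

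BPAF and BPB were compared at their common dose and time in 1 comparison for each gene, with p-values adjusted over all 13743 genes. None of the 8 tested genes passed limma's test, and limma-voom called none of the 10, where limma called 0.24% of all genes and limma-voom 0.0%. With the replicate number as a block, limma called none of the 13743 genes, against 33 without it. The libraries of the 2 groups overlapped in all 10 genes, against 13.0% of tested genes that did not overlap. Scnn1g and Aqp3 had an unadjusted p under 0.05 by limma, as did 927 of all 13743 genes. Scnn1g was -2.24 in BPAF against BPB with a 95% interval of -3.55 to -0.93 (adjusted p = 0.276 by limma), and -2.93 without BPAF 1 (adjusted p = 0.0138). Aqp3 was -4.49 with an interval of -7.56 to -1.42 (adjusted p = 0.374), and -6.50 without BPAF 1 (adjusted p = 0.000383). With the block these 2 genes had adjusted p of 0.484 and 0.519, and 0.346 each in the fit of the 6 exposed libraries alone. Both results without BPAF 1 set 2 BPAF libraries low in urothelial markers against 3 BPB libraries high in them. For the other genes the intervals included 0: Ano1 at -0.85 (-1.73 to 0.02), Aqp1 at -1.15 (-2.54 to 0.26), Scnn1b at -0.69 (-1.98 to 0.60), Cftr at 1.53 (-0.25 to 3.31), Aqp5 at 1.16 (-1.03 to 3.35) and Aqp8 at 0.11 (-3.27 to 3.49). Each of these 6 intervals reaches past a log2 difference of 1 in size, so a missed threshold does not show that the compounds act alike. The sign of Aqp8 turned without BPB 1, BPB 2 or BPAF 3. No ENaC regulator or anion secretion partner was called between the compounds by limma or limma-voom, with 0 and 1 at an unadjusted p under 0.05. The smallest p belonged to Nr3c1 (-0.51) and St14 (0.85) among the ENaC regulators and to Car2 (1.37) and Kcnma1 (-0.80) among the partners.

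Across the 9 libraries, the tested genes closest to each gene were found by the root mean square difference of standardized log2(FPKM + 1). Aqp3 lay nearest to Adtrp (0.08), the uroplakin gene Upk2 (0.086) and Rhov (0.088), and Scnn1g to Extl1 (0.088), 2610027K06Rik (0.139) and Fa2h (0.143). Ano1 lay nearest to Cyp1b1 (0.174), Tbx18 (0.197) and Lonrf2 (0.2), Cftr to Arl4c (0.271), Txnrd1 (0.3) and Gsr (0.321), and Aqp1 to Ldoc1l (0.248), Galnt2 (0.25) and Asph (0.252). Aqp8 lay nearest to Col24a1 (0.267), Bhlha15 (0.294) and Vstm5 (0.315), and Scnn1b to Tcta (0.342), Ehhadh (0.351) and Fbxo6 (0.352). Aqp5 had no close match, its nearest being Hoxb4 at 0.497. A smaller value means a more alike pattern, and with 9 libraries in 3 groups such a rank describes these libraries only.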

How the data were processed

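RNA-seq libraries of mouse uterus were analysed, 3 each from the BPAF, BPB and control groups, grouped by their titles. The authors deposited 1 table per library with a symbol and a value per gene. The unit is not named, and the deposited values were read as FPKM from the values themselves. Multiplied by the gene's length they were whole multiples of 1 step per library, within 0.02 reads, for 99.95% of 20945 genes searched, which gave reads per gene and the totals behind the scaling. For 66.0% of 15063 genes with several transcripts the length was the sum of all distinct exons in GENCODE M21 (8 of the 10 genes here, with that of Ano1 and Aqp5 found by search). For the aligner, counting tool, annotation and build, the sources used here give nothing. Repeated symbols (126 of 34745 lines) were left out.

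Genes reaching 1 FPKM in 3 or more libraries were tested on log2(FPKM + 1) with limma 3.58.1 (R 4.3.3; trend and robust, all 9 libraries in 1 fit, two-sided, Benjamini-Hochberg over 13743 genes, threshold 0.05). The added 1 understates changes of low genes. Tables and figures were made with Python 3.11.15. On simulated data of BPB against control limma recovered 87 of 87 genes changed by 2 on the log2 scale. It recovered 106 of 106 changed by 3, with 5 false calls among 12734 genes. These counts do not give the power in the real libraries, where Aqp3 was not called in BPB at 6.01 ± 1.37. Alternatives were the pseudocount, the filter, trend and robust settings, median-ratio scaling, the 6 libraries of a comparison, a replicate block, a threshold of 0.10 and leaving out each library. Limma-voom on reads (10 or more in at least 3 libraries), the block in the 6 exposed libraries and the order of levels without BPAF 1 were added after seeing the data.

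All 10 genes are described. From each further list the text names up to 4 genes called, or the 2 with the smallest p where none was. From marker lists it names those with the highest mean. Aqp11, Aqp7 and Cyp26a1 were named besides, with their values known. The genes and lists were chosen with earlier results of these data known. Same-numbered BPAF and BPB libraries deviated together (correlations of 0.339 to 0.484 between deviations from group means). This comes from the data, not the labels. Same-numbered exposed and control libraries did not (-0.399 to -0.079). With 3 libraries per group such correlations cannot show pairs, since BPB 1, 2 and 3 had 0.448, 0.335 and 0.372 with control 3, 1 and 2. The replicate number was used as a block in alternative fits only, and the main fit was unpaired. No 2 libraries of a group agreed within counting noise. Protein sequences were not used here, nor was a promoter of Scnn1a.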

Additional observations from a re-analysis of the deposited data

How the results depend on the processing

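Under the alternatives, 447 of 488 values of the 8 tested genes kept their direction and their side of the threshold. Most of these values belong to genes that were not called in the main fit. Of the 2 calls in BPB, that of Scnn1g was kept in 11 of 20 alternatives and that of Ano1 in 8 of 20. In BPB against control, 351 genes were called with a pseudocount of 1, but 152 with 0.1, 66 with 0.01, 163 with no filter, 774 at a threshold of 0.10, 57 by limma-voom and 19 with the replicate block. Of the 8 genes 2 were called, but 1 with a pseudocount of 0.1, 1 with median-ratio scaling and 0 with a pseudocount of 0.01, no filter, limma-voom or the replicate block, under which Scnn1g and Ano1 had adjusted p of 0.0725 and 0.0908 by limma. Leaving out 1 library gave 1 to 427 genes and 0 to 3 of the 8. In BPAF against control 3 genes were called, but 0 with the replicate block or with 6 libraries, and 1 to 10 without 1 library. In BPAF against BPB 33 genes were called, but 66 at a threshold of 0.10, 11 with no filter and 0 with a pseudocount of 0.1 or 0.01, 6 libraries, limma-voom, the replicate block or the block in the 6 exposed libraries. Leaving out 1 library there gave 0 to 234 genes and 0 to 2 of the 8. The replicate block also ended the call of Tmprss2 in BPB (adjusted p = 0.0574) and those of Oxtr, Sprr2b and Sprr2g (adjusted p = 0.0574, 0.0527 and 0.0574 by limma), and changed no other call of the 8 genes. The cause of these moves was not tested.

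Signs turned in BPB against control for Aqp8 (-0.45 with a pseudocount of 0.1, -1.46 with 0.01, -1.63 by limma-voom and, without 1 library, -1.10 without BPB 3 to 1.57 without BPB 2). The other signs turned without 1 library, with these ranges. In BPAF against control Aqp5 ran from -0.68 (without control 2) to 1.11 and was -0.17 without BPAF 3, Aqp1 from -0.024 (without control 3 or BPAF 1) to 1.09, Aqp3 from -0.49 (without BPAF 1) to 2.66, Cftr from -1.14 to 0.50 (without BPAF 3) and Aqp8 from -0.59 (without BPAF 3) to 1.68. In BPAF against BPB Aqp8 ran from -1.26 (without BPAF 3) to 1.88, with -0.77 and -0.79 without BPB 1 and BPB 2, Ihh from -0.89 to 0.58 (without BPB 1), with 0.02 without BPAF 2, and Fst from -1.61 to 0.45 (without BPAF 2). The cause was not tested. Aqp2 and Scnn1a are limited by depth.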
